A study of Mus musculus with 32 samples.

Results

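The liver transcriptomes of 8-week-old offspring were compared between maternal obesity (MO) and control litters with both sexes pooled. All 16 libraries of that age entered the comparison, out of 32 libraries in the series, and they were selected by their labels of age, sex and maternal diet: the 8 libraries of MO males (MM, n = 4) and MO females (MF, n = 4) were set against the 8 libraries of control males (CM, n = 4) and control females (CF, n = 4), with sex as a covariate. MO offspring came from dams fed a Western-style diet, rich in fat, sucrose and cholesterol, from before mating through pregnancy and lactation, and control offspring came from dams fed chow. All offspring were weaned onto chow at 3 weeks and stayed on it for 5 weeks, so that MO offspring had not eaten the Western-style diet since weaning. Per the study's methods, every animal of both arms was Reg3g-fl/+ or Reg3g-fl/fl on a C57BL/6J background, sired by wild-type C57BL/6J males, and no Cre driver is mentioned. Litter membership was not given in the sources used here, so siblings may share a group and the p-values below measure the spread between libraries.

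The liver takes up fatty acids from blood, stores them as triglyceride in lipid droplets, burns them in mitochondria and peroxisomes, and exports them in lipoproteins. It also makes cholesterol and bile acids, iron-regulating hepcidin, acute phase proteins and the enzymes that clear drugs and hormones. Many of these functions differ between males and females after puberty, because the sexes release growth hormone in different patterns, and many respond within hours to feeding, to the time of day and to stress.

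Between 25689193 and 42574926 reads were assigned to genes per library. Of 14242 listed genes, 14195 had at least 15 reads in at least 4 libraries and were tested. Xist and the Y-linked genes matched the labelled sex in all 16 libraries, with Xist between 486 and 903 CPM in females and at most 0.325 CPM in males, where CPM is the count of a gene scaled to a common library size. The floxed gene, Reg3g, was not among the genes listed at this age, so its level was not analysed here. Hepatocyte markers were abundant, with a summed level of 94640 to 136200 CPM over 7 markers. The library MM 2 stood apart: mitochondrially encoded transcripts took 1.69% of its reads, against 3.59% to 5.58% in the other 15, and its mean squared log2 deviation from its group was 0.451, against 0.0946 to 0.306. Transcripts of the pancreatic islet, a list added after the values were seen, were also highest in MM 2 and CF 2, where Ins2 reached 106.8 and 77.0 CPM against at most 22.6 CPM elsewhere. Counts of genes in a list were therefore also made without MM 2 and without both libraries.

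No gene passed the test of the pooled comparison. Of the 14195 genes, 0 were called at a false discovery rate (FDR) under 0.05 by edgeR's quasi-likelihood test (0% of genes), and 788 had an unadjusted p under 0.05, which is 5.55% of all genes, with 423 higher in MO (2.98%) and 365 lower (2.57%). The likelihood ratio test of the same package called 21 genes (0.148%), 12 higher and 9 lower, and DESeq2 called 35 (0.262%), 16 higher and 19 lower, and 19 genes were called by both. Limma-voom called 1 gene. Across all genes the median log2 fold change was 0.01, with a median standard error of 0.14. For 13510 genes (95.2%) the 95% interval of the pooled fold change lay within a 2-fold change in either direction, so larger pooled changes lay outside their intervals. The pooled value averages the sexes, and these intervals do not bound the change within either sex.

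**Figure D1:**
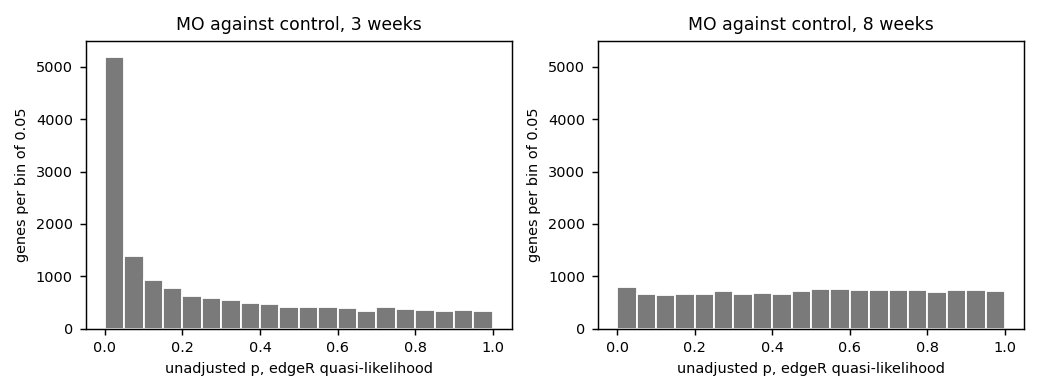
Distribution of unadjusted p-values of MO against control over all genes tested, at 3 weeks (left) and 8 weeks (right), in bins of 0.05 on the horizontal axis and with the number of genes on the vertical axis. At 3 weeks the first bin holds 5190 genes, and at 8 weeks it holds 788.

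At 8 weeks, 4 genes came nearest to the threshold, each with an FDR between 0.0616 and 0.0741 by the quasi-likelihood test. Eif4ebp3, a translational repressor that binds the cap-binding factor eIF4E (chromosome 18, 36664060 to 36665917, mm10), had the smallest p. Its level was 24.0, 31.5, 34.2 and 24.2 CPM in CM and 10.5, 10.0, 6.86 and 7.16 CPM in MM. In females it was 8.42, 4.22, 7.40 and 6.40 CPM in CF and 5.26, 2.52, 4.16 and 2.89 CPM in MF. The male groups did not overlap, the female groups did, and all 4 CM libraries lay above the other 12. The log2 fold change was -1.29 ± 0.20 (SE, n = 8 per group, FDR 0.0616 by edgeR's quasi-likelihood test), and Eif4ebp3 was called by the likelihood ratio test, DESeq2 and limma-voom. An exon of it shares 327 bases with an annotated transcript of the same strand, so reads there cannot be assigned to 1 gene alone.

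Kyat3 encodes kynurenine aminotransferase 3, which turns kynurenine into kynurenic acid (chromosome 3, 142701051 to 142746870). Its level was 238, 286, 250 and 219 CPM in CM against 170, 167, 122 and 149 CPM in MM. The female libraries had 318, 291, 298 and 259 CPM in CF and 259, 209, 187 and 209 CPM in MF. Every MM library lay below every CM library, and in females the lowest CF and the highest MF library met at 259 CPM. The log2 fold change was -0.57 ± 0.10 (SE, FDR 0.0706 by edgeR's quasi-likelihood test), with a 95% interval from -0.77 to -0.37. An antisense gene overlaps 147 bases of its exons.

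Slc39a5, a zinc importer of the basolateral membrane (chromosome 10, 128395931 to 128401229), was the gene nearest to the threshold on the higher side. It measured 0.312, 0.533, 0.166 and 0.479 CPM in CM and 1.01, 1.54, 0.823 and 0.698 CPM in MM. In CF it measured 1.2, 0.928, 1.26 and 1.07 CPM and in MF 2.39, 2.27, 1.86 and 3.02 CPM. Neither sex overlapped between control and MO, at 5 to 102 reads per library. The log2 fold change was 1.24 ± 0.21 (SE, FDR 0.0706 by edgeR's quasi-likelihood test). Obp2a, a lipocalin of the odorant-binding family, was at 0.718 to 4.92 CPM in CM and 0.0915 to 0.528 CPM in MM, and was at 0 in 7 of the 8 female libraries. The value of -3.09 ± 0.54 for Obp2a (SE, FDR 0.0741 by edgeR's quasi-likelihood test) therefore rests on the males.

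**Figure D2:**
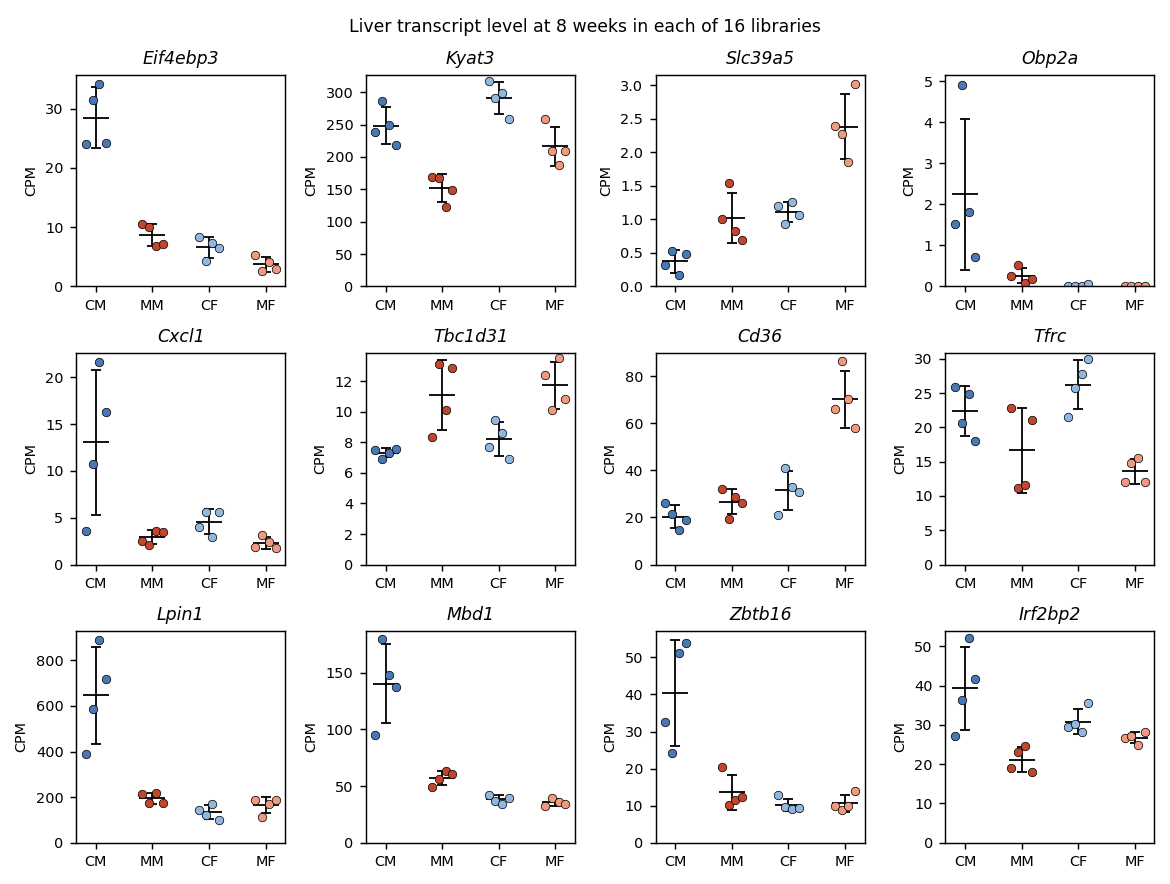
Level of 12 genes at 8 weeks in CPM (vertical axis, linear, from 0) in each library (points) of the 4 groups on the horizontal axis, with the mean (wide bar) and SD (error bar) of 4 libraries. Kyat3 lies at 122 to 170 CPM in MM against 219 to 286 CPM in CM, and Lpin1, Mbd1 and Zbtb16 are highest in the 4 CM libraries.

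Beyond these 4, the 10 genes with the smallest p in each direction were described, none of which passed the quasi-likelihood test. On the higher side, Cd36, the fatty acid translocase that takes up long-chain fatty acids, had 26.3, 21.5, 14.8 and 18.9 CPM in CM and 32.0, 19.5, 28.6 and 26.2 CPM in MM, and the groups overlapped. In females Cd36 had 21.1, 41.2, 33.1 and 30.6 CPM in CF and 66.0, 86.3, 70.1 and 57.7 CPM in MF, with no overlap. The pooled log2 fold change of Cd36 was 0.77 ± 0.17 (SE, FDR 0.329 by the quasi-likelihood test and 0.0184 by the likelihood ratio test of edgeR). Tbc1d31, a protein of the centrosome, was at 6.92 to 9.49 CPM in the 8 control libraries (median 7.54) and 8.35 to 13.5 CPM in the 8 MO libraries (median 11.6), and within each sex the groups did not overlap. Its log2 fold change was 0.56 ± 0.10 (SE). The remaining 7 on this side were 2310034O05Rik at 1.12, Gm34333 at 0.87, AI662270 at 0.79, Myzap at 0.71, Fam171b at 0.69, A630031M04Rik at 0.55 and Rin2, an exchange factor for Rab5, at 0.39 on the log2 scale. All but A630031M04Rik and Rin2 had a median level of 0.717 to 2.13 CPM in both maternal groups, so they rest on few reads, and AI662270 shares an exon with another annotated gene.

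On the lower side, Cxcl1, a chemokine that attracts neutrophils, was at 3.55, 10.7, 21.6 and 16.3 CPM in CM and 2.51, 2.11, 3.57 and 3.52 CPM in MM. In females Cxcl1 was at 4.04, 5.66, 2.97 and 5.65 CPM in CF and 1.85, 3.14, 2.42 and 1.80 CPM in MF. All but 1 CM library lay above all MM libraries, and the spread of the CM libraries was the widest of the 4 groups. The log2 fold change of Cxcl1 was -1.59 ± 0.31 (SE, FDR 0.158 by edgeR's quasi-likelihood test). Tfrc, the transferrin receptor for iron uptake, was at 18.1 to 29.9 CPM in the control libraries (median 25.3) and 11.1 to 22.8 CPM in the MO libraries (median 13.4). The female groups of Tfrc did not overlap and the male groups did, and the log2 fold change was -0.69 ± 0.16 (SE, FDR 0.329 by edgeR's quasi-likelihood test). Ildr2, a membrane protein of the endoplasmic reticulum linked to lipid homeostasis, had a log2 fold change of -0.68, with 697 bases of its exons shared with an antisense gene, and Bglap3, an osteocalcin-like gene, of -1.69. The others were mt-Tp, a mitochondrial tRNA, at -2.69, the pseudogene Gtpbp4-ps1 at -2.53 and 9030619P08Rik at -0.62. Gtpbp4-ps1 was at or near 0 in all 8 female libraries and at -1.59 on the log2 scale without CM 2, and reads of a pseudogene or of a tRNA may come from near-identical copies. Of these 20 genes, 17 were called by the likelihood ratio test and 18 by DESeq2.

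**Figure D3:**
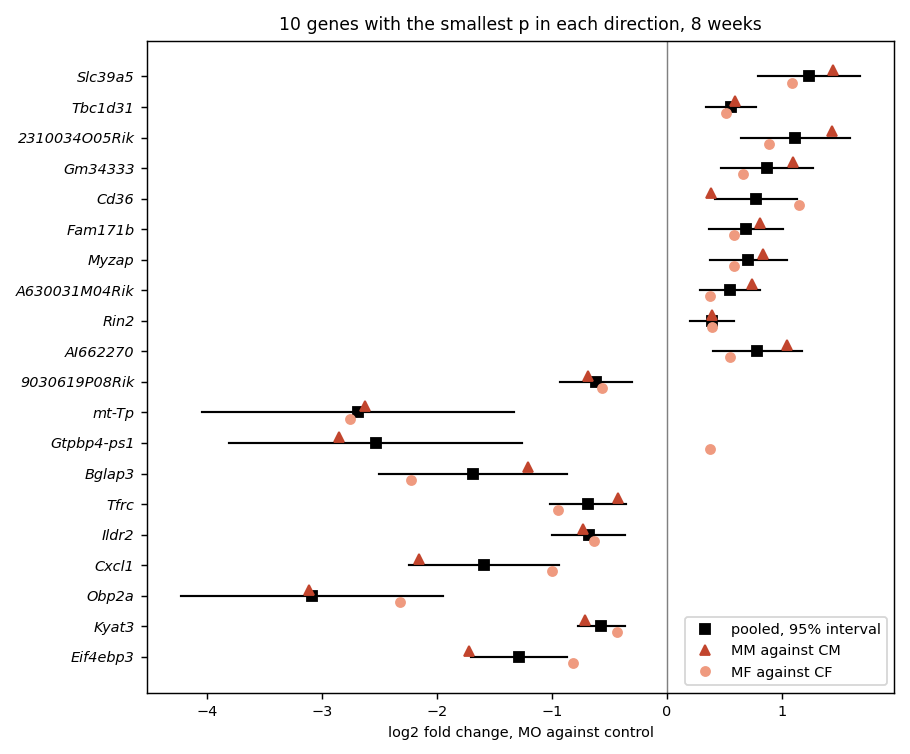
Log2 fold change of MO against control at 8 weeks (horizontal axis) for the 10 genes with the smallest p in each direction (rows), as the pooled value with its 95% interval (square and line), the male value (triangle) and the female value (circle). The male and female values have the same sign for 19 of the 20 genes, the exception being Gtpbp4-ps1, at 0.37 in females and -2.85 in males. The genes were picked by the pooled p, which favours a shared sign, and the value of Obp2a rests on the males.

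A gene whose 4 MO libraries all lay above, or all below, the 4 control libraries in both sexes was counted as separated. Over all genes tested, 6 were separated on the higher side (0.0423% of genes) and 7 on the lower side (0.0493%). The former were Slc39a5, Tbc1d31, Paqr8, Psd4, Rps6ka1 and Gm14286, and the latter included Irf2bp2, Fgfr1, Ptdss1, Snhg16, St3gal1 and Tmem19, all named after their values were seen apart from the first pair. Irf2bp2, a transcriptional corepressor that partners IRF2, had 27.1, 36.3, 52.2 and 41.7 CPM in CM against 19.0, 23.1, 24.6 and 17.9 CPM in MM, and 28.3 to 35.5 CPM in CF against 25.0 to 28.2 CPM in MF. Exons of Irf2bp2 overlap an antisense gene over 1039 bases, and the strand setting of the counting was not given, so reads of the pair may be mixed. The female ranges of Irf2bp2 were 0.1 CPM apart at their nearest. Its log2 fold change was -0.55 ± 0.14 (SE, FDR 0.329 by edgeR's quasi-likelihood test), and those of Paqr8, a membrane progesterone receptor, and Fgfr1, a fibroblast growth factor receptor, were 0.84 ± 0.21 and -0.50 ± 0.12.

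Among 26 tested genes of lipid droplets and lipid transport, 0 were called by the quasi-likelihood test (1, Cd36, by the likelihood ratio test), 5 were higher at an unadjusted p under 0.05 and 0 were lower. That is 19.2% of the list, where 2.98% of all genes were higher at this p. Besides Cd36, Apoa4, an apolipoprotein of triglyceride-rich particles, had a log2 fold change of 0.52 ± 0.20 and ranged from 164 to 360 CPM in controls and 176 to 588 CPM in MO libraries. Cidec, which fuses lipid droplets, and Lpl, lipoprotein lipase, were chosen after their values were seen and had log2 fold changes of 0.71 ± 0.28 and 0.32 ± 0.13. Without MM 2 the value of Apoa4 was 0.31, and without MF 3 that of Cidec was 0.52. The ranges of Apoa4, Cidec and Lpl overlapped between control and MO libraries. The median of the list was 0.10 on the log2 scale, against 0.01 over all genes. Without MM 2 the counts were 4 higher and 1 lower, and without MM 2 and CF 2 they were 1 higher and 2 lower, so the count rests on these libraries.

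Of 31 genes of fatty acid oxidation and ketogenesis, 28 had a value above 0 (7594 of 14195 over all genes), with a list median of 0.08, and 1 was higher at an unadjusted p under 0.05, or 3.23% of the list where 2.98% of all genes were higher and 2.57% lower (0 called by edgeR's quasi-likelihood test). That gene was Cyp4a14, an omega-hydroxylase of fatty acids and a PPARα target with close paralogs, at 0.80 ± 0.26. Cyp4a31, of the same family, was at 0.60 ± 0.30. In fatty acid and triglyceride synthesis 1 gene of 23 was higher and 1 lower, Srebf1, the lipogenic transcription factor, at 0.37 ± 0.17 and Lpin1, a phosphatidate phosphatase, at -0.72 ± 0.30. The 23 genes of cholesterol synthesis had a median of -0.07, with 19 below 0 and 1 lower at an unadjusted p under 0.05 (4.35% of the list). That median was 0.07 in males and -0.19 in females. Sqle, squalene epoxidase, was at 111 to 233 CPM in controls and 83.1 to 160 CPM in MO libraries, a log2 fold change of -0.23 ± 0.10, and Nsdhl was at -0.17 ± 0.10. In bile acid synthesis and transport 1 of 22 genes was lower, Abcb11, the bile salt export pump, at -0.25 ± 0.09, beside Nr0b2, the repressor SHP, at -0.46 ± 0.22. In glucose metabolism 2 of 24 were lower, Pfkfb3 at -0.54 ± 0.23 and Pck1, the gluconeogenic enzyme PEPCK, at -0.47 ± 0.21, both with values near 0 in females (0.11 and 0.10). Single libraries moved some of these values, with Cyp4a31 at 0.38 without MF 3 and Pck1 at -0.28 without CM 3. The cholesterol synthesis median was -0.02 without CF 3 and -0.11 without MM 2.

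Genes of the stress response lay mostly below 0. In endoplasmic reticulum stress, 9 of 28 genes were lower at an unadjusted p under 0.05 and 0 were higher, a share of 32.1% where 2.57% of all genes were lower at this p, and the list median was -0.17. Dnajb9, a co-chaperone of BiP, ranged from 49.7 to 98.8 CPM in controls and from 41.5 to 66.0 CPM in MO libraries, and its log2 fold change was -0.42 ± 0.14. Chac1, a glutathione-degrading target of ATF4, was at -0.54 ± 0.18. All 16 heat shock genes had a value below 0 (6601 of 14195 over all genes), 5 of them at an unadjusted p under 0.05, with a median of -0.21. Hsph1, a cytosolic chaperone, ranged from 43.6 to 110 CPM in controls and from 28.4 to 54.6 CPM in MO libraries (log2 fold change -0.58 ± 0.18). Bag3, a co-chaperone in clearing misfolded proteins, was at -0.33 ± 0.11. Of 19 immediate early genes, which respond within minutes to stimulation, 6 were lower and 0 higher, with a median of -0.35. Egr1 was at 17.8 to 86.3 CPM in controls and 14.7 to 42.8 CPM in MO libraries (log2 fold change -0.94 ± 0.28, and -0.62 without CF 1, the library at 86.3 CPM), and Btg2 was at -0.49 ± 0.17. None of the 3 lists had a called gene by edgeR's quasi-likelihood test, and the 8 control and 8 MO libraries overlapped for each of the 6 genes named here. Within males, Chac1 and Bag3 did not overlap, with Chac1 at 5.2 to 8.71 CPM in CM against 2.68 to 4.66 CPM in MM and Bag3 at 46.5 to 73.0 CPM against 39.2 to 42.8 CPM.

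The libraries of 1 group differed widely in these lists. For the immediate early list, the median deviation of a library from the mean of its same-sex controls was -0.55 in CM 1 and between 0.22 and 0.25 in the other 3 CM libraries, and it ran from -0.65 to -0.19 in MM. In females it ran from -0.19 to 0.28 in CF and from -0.19 to 0.05 in MF. The heat shock list gave -0.60 to -0.06 in MM against -0.28 to 0.39 in CM, and -0.18 to -0.02 in MF against -0.12 to 0.13 in CF. The counts at an unadjusted p under 0.05 differed by sex, a difference that was not tested. In the 8 male libraries alone 8 immediate early, 4 heat shock and 6 endoplasmic reticulum stress genes were lower and 0 higher. In the 8 female libraries alone 0, 0 and 2 were lower and 1, 1 and 0 higher. Over all 14195 genes 288 were lower and 383 higher in males alone, and 129 and 213 in females alone. The counts of lower genes also moved with single libraries. When 1 library at a time was left out they ran from 5 to 12 for endoplasmic reticulum stress (5 without CM 2 and 5 without CF 1), from 3 to 6 for heat shock (3 without CM 2) and from 4 to 8 for immediate early genes (4 without CM 3 and 4 without CM 4). Without MM 2 they were 11, 6 and 6, where 619 of all 14195 genes were lower. The heat shock median was -0.13 without CM 2. Mice were killed in the fed state, and the time and order of dissection were not given in the sources used here.

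**Figure D4:**
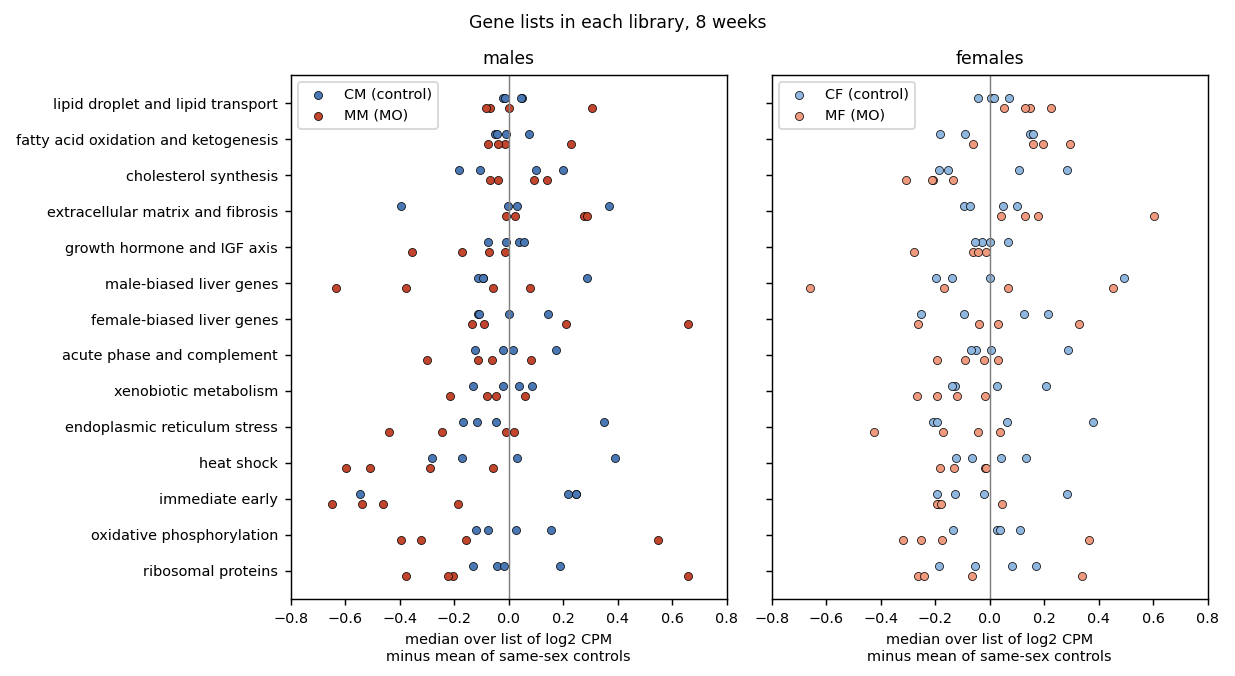
Median over the genes of each list (rows) of the log2 CPM of a library minus the mean of the 4 control libraries of its sex (horizontal axis), for each of 8 male libraries (left) and 8 female libraries (right). The heat shock values run from -0.60 to -0.06 in MM and overlap those of CM, and the library at 0.66 for ribosomal proteins is MM 2.

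Genes that mark the sex and growth hormone status of the liver had values on both sides of 0, and none was called. Of 20 genes of the growth hormone and IGF axis, 5 were lower and 1 higher at an unadjusted p under 0.05 (30% of the list, against 5.55% of all genes). The higher gene was Igfbp3, a carrier of IGF1, at 0.32 ± 0.10, and the lower gene with the smallest p was Socs3, a feedback inhibitor of cytokine signalling, at -0.71 ± 0.23. Of 28 male-biased liver genes 4 were lower (14.3% of the list, where 2.57% of all genes were lower at this p) and 0 higher, with a median of -0.23, among them Selenbp2 at -0.73 ± 0.25 and Nudt7, a peroxisomal hydrolase, at -0.31 ± 0.10. Of 32 female-biased genes 5 were higher, Cd36 among them, and 1 was lower (18.8% in all, against 5.55% of all genes). Abcd2, a peroxisomal fatty acid transporter, had the next smallest p at 0.66 ± 0.20, and the list median was 0.14. The median of the female-biased list was 0.41 in males and -0.04 in females, and with 1 library at a time left out the pooled median ran from 0.01 (without MM 1) to 0.20. Its counts became 3 higher and 4 lower without MF 4, and 8 higher and 1 lower without MM 2 and CF 2. For the male-biased list the same leave-outs gave 3 to 8 lower genes (8 without MM 2) and a median from -0.29 to -0.08 (the latter without CF 1). In the 8 male libraries alone 6 of its genes were lower and 0 higher, with a median of -0.23. In the 8 female libraries alone 0 were lower and 1 higher, with a median of -0.13. Over all 14195 genes 288 were lower and 383 higher in males alone, and 129 and 213 in females alone. The difference between the sexes in this list was not tested. The growth hormone list had 4 to 6 lower genes, and 3 higher and 3 lower without MM 2 and CF 2. In that last fit 814 of all 14195 genes were higher and 943 lower at an unadjusted p under 0.05. No gene of these lists was called by the quasi-likelihood test, and edgeR's likelihood ratio test called Cd36 alone.

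Clearance and secretory functions gave small values. In xenobiotic metabolism 6 of 33 genes were lower and 1 higher at an unadjusted p under 0.05 (21.2% of the list, against 5.55% of all genes), with a median of -0.11. The 2 with the smallest p were Cyp2c37 at -0.43 ± 0.13, which has near-identical paralogs, and the sulfotransferase Sult5a1 at -0.54 ± 0.17. In the acute phase and complement list 5 of 31 were lower and 0 higher (16.1% of the list, where 2.57% of all genes were lower at this p). Crp, which is a modest acute phase reactant in mice, was at 315 to 442 CPM in controls and 217 to 369 CPM in MO libraries, with a log2 fold change of -0.31 ± 0.08, and was called by DESeq2 (FDR 0.0321) but not by edgeR's quasi-likelihood test (FDR 0.329). Steap4, a metalloreductase, was at -0.50 ± 0.17. In glutathione and NRF2 targets 1 of 26 was higher and 1 lower, Nfe2l2, which encodes NRF2, at 0.23 ± 0.10 and Gpx1 at -0.27 ± 0.12. In the list written for methionine and one-carbon metabolism 3 of 24 were lower, and without MM 2 the count was 0. The 2 with the smallest p were Aass, an enzyme of lysine breakdown, at -0.24 ± 0.11 and Nnmt at -0.38 ± 0.18. Of 25 genes of the urea cycle and amino acid catabolism, 24 had a value below 0 and 0 had an unadjusted p under 0.05, with Sds at -0.39 ± 0.19 and Got1 at -0.33 ± 0.17.

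In iron handling, 2 of 21 genes were higher and 1 lower at an unadjusted p under 0.05 (14.3% of the list, against 5.55% of all genes). Slc40a1, ferroportin, the iron exporter, was at 117 to 190 CPM in controls and 120 to 255 CPM in MO libraries, with a log2 fold change of 0.38 ± 0.10, opposite in sign to Tfrc. Hamp, which encodes hepcidin, the hormone that degrades ferroportin, was at 682, 821, 549 and 592 CPM in CM, 991, 1020, 972 and 702 CPM in MM, 1102, 941, 1136 and 815 CPM in CF and 1762, 356, 371 and 842 CPM in MF. The MF libraries of Hamp spread from 356 to 1762 CPM, and the log2 fold change was 0.11 ± 0.27 with a 95% interval from -0.45 to 0.67.

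Matrix genes were mostly above 0: of 27 genes, 23 had a value above 0 and 4 were higher at an unadjusted p under 0.05 (14.8% of the list), with a median of 0.16. Over all 14195 genes 7594 had a value above 0 and 2.98% were higher at this p. Col4a2 and Col4a1, the basement membrane collagens that share a divergent promoter, were at 0.39 ± 0.11 and 0.35 ± 0.12. Without MM 2 the count was 8 higher and 0 lower, where 627 of all 14195 genes were higher. In the clock list Wee1 was at 0.41 ± 0.13 and Cry1 at -0.27 ± 0.09, with 2 of 22 higher and 1 lower. In the cell cycle list 1 of 27 was higher, Aurkb at 0.71 ± 0.25, beside Mcm6 at 0.26 ± 0.13. Among 28 genes of H3K9 methylation and heterochromatin, which write, read or erase repressive chromatin, 1 was higher, Dnmt1, the maintenance DNA methyltransferase, at 0.24 ± 0.09, beside Dnmt3a at 0.24 ± 0.12.

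Several lists had no gene with an unadjusted p under 0.05 (edgeR's quasi-likelihood test, 0 called). These were 78 ribosomal protein genes, with a median of -0.01 (smallest p for Rpl15 at -0.17 ± 0.11 and Rpl23a at 0.30 ± 0.25), 68 of oxidative phosphorylation, with a median of -0.06 (Uqcrc2 at -0.14 ± 0.08, Sdhc at -0.11 ± 0.08), 37 interferon response genes at 0.03 (Ifit2 at 0.26 ± 0.13, Ciita at 0.40 ± 0.22) and 12 of antigen presentation at 0.14 (H2-D1 at -0.16 ± 0.08, and Ciita). Without MM 2, 5 oxidative phosphorylation genes were lower and its median was -0.18, and the ribosomal median was -0.15. Rpl23a was at 0.11 without MM 2, and Ciita at 0.24 without MM 1. Without MM 2 and CF 2 the counts of lower genes were 15 in oxidative phosphorylation and 9 among ribosomal proteins. The interferon list then had 5 genes higher and 0 lower (2 and 0 without MM 2), and antigen presentation had 1 higher and 3 lower (1 and 2 without MM 2). Without MF 1, 7 oxidative phosphorylation genes and 6 of the urea cycle list were lower. The counts over all 14195 genes rose too, from 365 lower and 423 higher with all 16 libraries. They were 619 lower and 627 higher without MM 2, 943 and 814 without MM 2 and CF 2, and 526 and 566 without MF 1. MM 2 had the highest value of all libraries for oxidative phosphorylation and for ribosomal proteins.

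The counts of most other lists were small and moved when libraries were left out. Without MM 2, glucose metabolism had 0 lower genes in place of 2, and bile acid synthesis and transport had 3 lower in place of 1. Without MM 2 and CF 2, the clock list had 5 higher and 3 lower genes, H3K9 methylation and heterochromatin 4 higher, cholesterol synthesis 3 lower, and glucose metabolism 1 higher and 3 lower. In that fit 814 of all 14195 genes were higher and 943 lower at an unadjusted p under 0.05, against 423 and 365 with all 16 libraries. The count of all genes at this p ran from 620 to 1246 with 1 library left out. With 1 library at a time left out, the matrix list had 3 to 11 higher genes (11 without CM 4), fatty acid and triglyceride synthesis 0 to 4 higher (4 without MF 2), fatty acid oxidation 1 to 4 higher (4 without CF 1), the acute phase list 4 to 8 lower (8 without MF 2), methionine and one-carbon metabolism 0 to 6 lower (6 without MF 1), the cell cycle list 1 to 5 higher (5 without MF 1) and the clock list 1 to 6 higher (6 without CF 2). Among markers of other cells, the endothelial list had 0 to 3 and the B cell list 0 to 4 higher genes.

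Marker genes of other liver cells were read beside these values, because in bulk tissue fewer cells of a type and less RNA per cell cannot be told apart. All 11 Kupffer cell and macrophage markers, all 8 endothelial and all 8 B cell markers had a value above 0, of which 1, 2 and 1 had an unadjusted p under 0.05, where 7594 of all 14195 genes were above 0 and 2.98% were higher at this p (Marco at 0.94 ± 0.30, C1qc at 0.18 ± 0.15, Lyve1 at 0.54 ± 0.23, Kdr at 0.34 ± 0.16, Ms4a1 at 0.73 ± 0.34, Cd79b at 0.56 ± 0.28). The B cell median was 1.01 in males and 0.06 in females, and the macrophage median 0.34 and 0.01, while the endothelial median was 0.23 and 0.20. Their summed levels overlapped: macrophage markers ran from 235 to 629 CPM over the control libraries and 323 to 759 CPM over the MO libraries, endothelial markers from 165 to 392 and 173 to 364 CPM, and B cell markers from 8.73 to 23.5 and 11.6 to 31.7 CPM. The endothelial markers moved in the same direction as the collagens, and their part in those values was not tested. Stellate cell markers had Colec11 at 0.17 ± 0.09 and Rgs5 at 0.16 ± 0.12, cholangiocyte markers Sox9 at -0.23 ± 0.13 and Muc1 at -0.34 ± 0.21, T and NK cell markers Nkg7 at 0.56 ± 0.28 and Klrb1c at -0.34 ± 0.23, and hepatocyte markers Serpina1c at -0.23 ± 0.13 and Cps1 at -0.29 ± 0.18, the list having 4 of 7 markers above 0 and a median of 0.002. Of 5 red cell markers 4 were below 0, with a median of -0.22, with Hbb-bs at -0.25 ± 0.30 and Alas2, the one above 0, at 0.18 ± 0.13. The gallbladder markers had Sult1c2 at 0.31 ± 0.13 and Pigr at -0.15 ± 0.08, and the acinar Cela1 and Cela2a were at -0.28 ± 0.15 and -0.26 ± 0.23. Of 9 neutrophil markers 2 were listed, S100a8 at -0.48 ± 0.41 and S100a9 at -0.41 ± 0.36. Many of these small marker values moved by over 1.5 times when 1 library was left out, as Hbb-bs did to -0.03 without CM 2 and Cd79b to 0.32 without MM 1. Of 7 adipocyte markers Cfd alone was listed, at 8.45 CPM in MM 2, 4.38 CPM in MF 3 and at most 2.54 CPM in the other 14 libraries, and the defining Adipoq and Plin1 were not listed. The log2 fold change of Cfd was 2.16, with an unadjusted p under 0.05 by edgeR's quasi-likelihood test, and 1.14 without MF 3.

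On the whole transcriptome, maternal obesity aligned with a minor axis of variation. In a principal component analysis of log2 CPM, component 1 carried 33.0% of the variance and separated the sexes (exact permutation p = 0.000408, the smallest the design allows, adjusted p = 0.00204 over 5 components), and its mean did not differ detectably between MO and control (exact permutation p = 0.683). Component 4, with 6.09% of the variance, was the one on which MO and control differed: its mean was 20.1 ± 21.1 (SD, n = 8) in MO and -20.1 ± 22.0 in control, with an exact permutation p of 0.00204 over 4900 within-sex divisions, two-sided, and 0.0102 after adjustment over 5 components. Its values ran from 26.1 to 45.4 in MM against -52.1 to 15.1 in CM, with no overlap, and from -13.2 to 28.0 in MF against -42.7 to -0.45 in CF, with overlap. Without MM 2 none of the 5 components passed after adjustment: the smallest exact permutation p was 0.0273 for component 1 (adjusted p = 0.136), and for component 4 it was 0.0645 (adjusted p = 0.161).

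The pooled value assumes that males and females respond alike, and the interaction of sex and maternal obesity was tested for that. It called 0 genes by edgeR's quasi-likelihood test (0%), with 386 at an unadjusted p under 0.05 (2.72%), and the likelihood ratio test and DESeq2 called 4 and 3. The 3 genes with the smallest p were Lpin1, Mbd1, a reader of methylated CpG, and Zbtb16, the transcription factor PLZF. Lpin1 was at 389, 585, 889 and 719 CPM in CM and 215, 174, 217 and 173 CPM in MM, against 142, 121, 172 and 101 CPM in CF and 187, 114, 168 and 189 CPM in MF. Its 4 CM libraries lay above all other 12, and the male minus female difference in log2 fold change was -2.03 ± 0.32 (SE, FDR 0.108 by edgeR's quasi-likelihood test). Mbd1 was at 95 to 179 CPM in CM, 49.2 to 63.5 CPM in MM, 34.1 to 42.5 CPM in CF and 32.6 to 39.4 CPM in MF, with a difference of -1.18 ± 0.22, and Zbtb16 at 24.3 to 53.9, 10.1 to 20.5, 9.22 to 12.8 and 8.90 to 14.1 CPM, with a difference of -1.63 ± 0.36. In all 3 genes, as in Eif4ebp3, the CM group was the high one and the MM libraries lay nearer to the female libraries, with 1 exception. Zbtb16 in MM 1, at 20.5 CPM, lay nearer to CM 2 at 24.3 CPM than to the highest female library at 14.1 CPM.

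Within the same fit, MM against CM called 4 genes, Lpin1, Mbd1, Zbtb16 and Eif4ebp3, all lower in MM (0.0282% of genes, 849 or 5.98% at an unadjusted p under 0.05), and MF against CF called 0 by edgeR's quasi-likelihood test (0%, 316 or 2.23% at an unadjusted p under 0.05). In the 8 male libraries fitted alone Eif4ebp3 was the one call. The pooled log2 fold changes of Lpin1, Mbd1 and Zbtb16, -0.72, -0.70 and -0.77, are thus averages of -1.73, -1.29 and -1.57 in males and 0.30, -0.10 and 0.06 in females. Cyp2b9, a female-specific cytochrome P450, was the other gene called by the likelihood ratio test of the interaction beside these 3, and it was at 0 to 0.0599 CPM in CM, 0 to 1.48 CPM in MM and 404 to 666 CPM in females. For 4 genes (0.0282%) the groups separated in opposite directions in the 2 sexes, 2310040G24Rik, 5730405O15Rik, Arfgap2 and Mettl17, each higher in MM than in CM and lower in MF than in CF. Arfgap2 shares 1167 exon bases with an antisense gene and Mettl17 shares 151 with a gene of its own strand. Over all genes the male and female log2 fold changes, which share no library, correlated at Pearson's r = 0.248 and Spearman's rho = 0.189 across 14195 genes, which are not independent.

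The 3-week livers, taken before weaning, give the scale against which the 8-week values can be read. There, the same pooled model called 2933 of 15097 genes (19.4%, by edgeR's quasi-likelihood test), and 34.4% had an unadjusted p under 0.05. Of these, 2780 were also tested at 8 weeks. Their 8-week value had the sign of the 3-week change in 52.9%, against 51.1% of all 13871 genes tested at both ages, and 121 of them (4.35%) had an unadjusted p under 0.05 in the same direction, against 3.20% of all genes, while 66 (2.37%) had one in the opposite direction. For the 333 genes that changed at least 2-fold at 3 weeks the median size was 1.35 on the log2 scale, and at 8 weeks the median value along the 3-week direction was 0.11. In that set 63.7% kept the sign, and 52 (15.6%) had an unadjusted p under 0.05 in the same direction against 11 (3.30%) in the opposite one.

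The difference between the ages was itself tested, as the interaction of age and maternal obesity over all 32 libraries. It called 882 of 13871 genes (6.36%, edgeR's quasi-likelihood test), 806 of them called at 3 weeks, and in 826 the 8-week value was smaller in size than the 3-week value. The sign at 8 weeks was opposite to that at 3 weeks in 640 of the 882, a set picked for a difference between ages, which favours opposite signs. Library kit and read length changed along with age, so that age and kit cannot be told apart. Cholesterol synthesis showed it over a whole pathway: at 3 weeks 21 of 23 genes fell in MO and the list median was -1.63, at 8 weeks it was -0.07, and 21 of the 23 were called for the age difference. Sqle fell by 2.95 on the log2 scale at 3 weeks, from 163 ± 39.8 to 12.1 ± 1.23 CPM in males (SD, n = 4), and was at -0.23 at 8 weeks. Hamp fell by 10.40 at 3 weeks, from 279 ± 142 and 385 ± 132 CPM in control males and females to 0.397 ± 0.472 and 0.117 ± 0.146 CPM, and was at 0.11 at 8 weeks. The age difference of Hamp was 10.70 on the log2 scale, with an FDR of 9.63e-13 by edgeR's quasi-likelihood test.

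**Figure D5:**
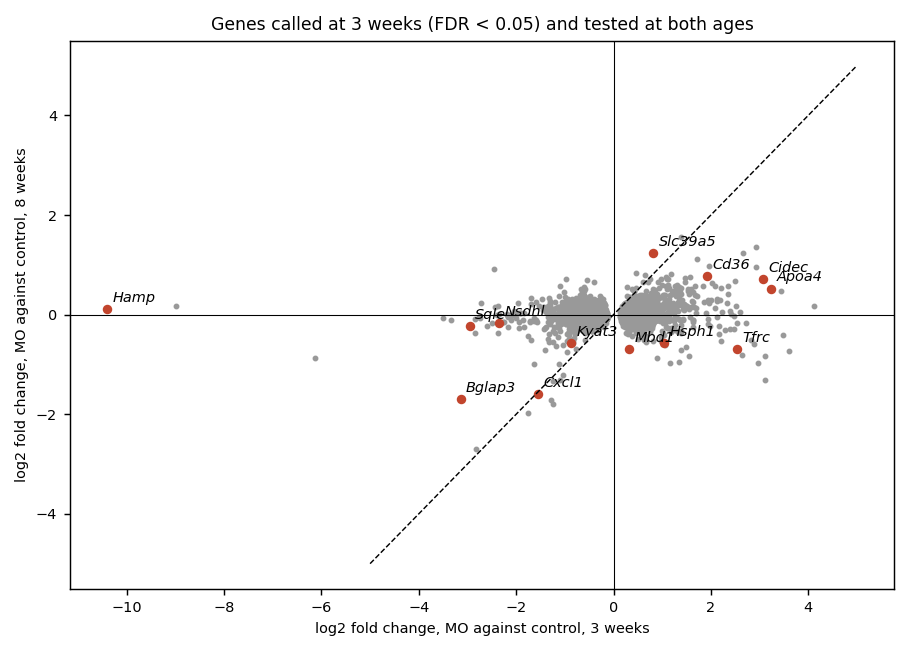
Log2 fold change of MO against control at 3 weeks (horizontal axis) and 8 weeks (vertical axis) for the 2780 genes called at 3 weeks and tested at both ages, with named genes in red and equal values on the dashed line. Most genes lie near 0 at 8 weeks, as Hamp does at 0.11 against -10.40 at 3 weeks, while Kyat3, Cxcl1 and Slc39a5 lie near the dashed line.

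Some of the genes nearest to the threshold at 8 weeks had changed in the same direction at 3 weeks. Eif4ebp3, with the smallest p at 8 weeks, had not: it was at 0.36 at 3 weeks (FDR 0.312) and its age difference of -1.62 was called (FDR 0.00149, edgeR's quasi-likelihood test). Of 20 genes called at 8 weeks by the likelihood ratio test and tested at both ages, 16 had the same sign at 3 weeks, and 12 had been called there, 10 in the same direction and 2, Tfrc and Ttll8, in the opposite one. Over all genes tested at both ages 51.1% had the same sign, and 19.4% of genes were called at 3 weeks. Kyat3 was at -0.88 at 3 weeks, Cxcl1 at -1.55, Ildr2 at -0.77, Bglap3 at -3.14, Slc39a5 at 0.82 and Tbc1d31 at 0.28, each past the 3-week test, and for none of these 6 was the age difference called (FDR 0.184 to 0.985 by edgeR's quasi-likelihood test). Cd36 was at 1.93 at 3 weeks and 0.77 at 8 weeks, with 43.3 ± 9.44 and 130 ± 30.9 CPM in control and MO males of 3 weeks, and its age difference was called (FDR 0.00255, edgeR's quasi-likelihood test). Cidec and Apoa4 likewise rose at 3 weeks, by 3.06 and 3.24, and had smaller values at 8 weeks with a called age difference (FDR 0.0111 and 1.82e-06 by edgeR's quasi-likelihood test).

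Tfrc changed sign between the ages, from 2.53 at 3 weeks, where it rose in MO, to -0.69 at 8 weeks, and its age difference of -3.22 was called (FDR 5.49e-08 by edgeR's quasi-likelihood test). In the heat shock list 10 of 16 genes had risen at 3 weeks, with a median of 0.55, and the age difference was called for 10, among them Hsph1, at 1.04 and then -0.58, and Bag3, at 0.55 and then -0.33. Ribosomal protein genes had fallen at 3 weeks in 69 of 78 cases, with a median of -0.28, and no age difference was called for them by edgeR's quasi-likelihood test (0 of 78). Of the 31 genes of fatty acid oxidation and ketogenesis, 24 had risen at 3 weeks, with a median of 0.48 against 0.08 at 8 weeks, and the age difference was called for 10. These 3-week counts are of called genes, and over all genes 19.4% were called at 3 weeks and 6.36% for the age difference.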

How the data were processed

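Livers were collected from fed mice, and mRNA was sequenced in 16 libraries at 8 weeks (Illumina Stranded mRNA Prep, Ligation) and 16 at 3 weeks (KAPA mRNA Hyperprep). The authors mapped reads to mm10 with STAR, dropped multi-mapped reads and counted with featureCounts; versions and the strand setting were not given in the sources used here. The deposited raw read counts per gene were used, and 25689193 to 42574926 counts per 8-week library set the precision. The log2 CPM columns the authors deposited, and columns of their own fold changes, p-values and FDR, were not used. CPM given here were computed from the counts with TMM factors.

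A minimum of 15 reads in 4 or more libraries was required, and genes were tested with edgeR 4.0.16 (R 4.3.3) by the quasi-likelihood test, with TMM normalisation, sex as covariate and Benjamini-Hochberg FDR. The ± of a fold change is its standard error. Alternatives were the likelihood ratio test, DESeq2 1.42.0, limma-voom (limma 3.58.1), other normalisations and filters, a replicate block, and leaving out libraries. The age test used all 32 libraries in 8 groups. Scripts were tested on simulated data. Named genes were the 10 with the smallest p in each direction, the 2 with the smallest p in each list and members whose role defines it, and the 3 with the smallest interaction p, with others marked as chosen after their values were seen. The labels decided which library belongs to which group. That this comparison was described, and which genes and gene lists it covers, was chosen with earlier results of these data known. Exon overlaps came from the GENCODE annotation of mm10. Exons of many other named genes overlap antisense genes, and with no strand setting given their reads may be mixed. The values of 1 gene with no overlap between the groups are not reported here.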

Additional observations from a re-analysis of the deposited data

Results flagged for a closer look

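Of 468 checks for a library far from the other 3 of its group, 39 stood apart, where chance gives about 1 in 20, and 11 of them were MM 2. Without the islet list, which was added because of its values in MM 2 and CF 2, 33 of 456 stood apart and 8 were MM 2. In MM 2 these were Fam171b at 1.10 CPM, A630031M04Rik at 4.76, Egr1 at 42.8, Dnmt1 at 10.0, Aass at 181, Serpina1c at 5520, Cela1 at 25.9, St3gal1 at 55.6, and the islet transcripts Ins1 at 41.8, Ins2 at 106.8 and Iapp at 26.0 CPM. CF 2 stood apart for the same islet transcripts, Ins1 at 28.8, Ins2 at 77.0 and Iapp at 16.0 CPM, and for Ciita at 3.08, Uqcrc2 at 196 and Dnmt1 at 9.73 CPM.

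In the other CM and MM libraries, CM 2 stood apart for Gtpbp4-ps1 at 4.51, Rpl23a at 185, Sult1c2 at 4.92 and Snhg16 at 4.79 CPM, and for its total of 26765492 counts. CM 1 did so for mt-Tp at 4.33 CPM, CM 4 for Mcm6 at 5.21 CPM, MM 1 for Cyp4a14 at 302 CPM, and MM 4 for Hamp at 702 CPM. In females, CF 1 stood apart for Zbtb16 at 12.8 and Gm14286 at 0.434 CPM, CF 3 for Snhg16 at 2.97 CPM, and CF 4 for Obp2a at 0.0628, Kdr at 51.1 and Cidec at 0.314 CPM. MF 1 did so for Rpl15 at 139 CPM, MF 2 for Steap4 at 88.7, Chac1 at 2.02 and Gm14286 at 0.577 CPM, MF 3 for Cfd at 4.38 and 2310040G24Rik at 1.35 CPM, and MF 4 for Fgfr1 at 3.89 CPM.

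The effect of maternal obesity differed between the ages for 882 genes by the age interaction, and for 25 of the 108 named genes tested for it. The 8-week minus 3-week difference in log2 fold change was positive for Hamp at 10.70, Sqle at 2.73, Nsdhl at 2.18, Pigr at 1.2, Abcd2 at 1.08, Gm34333 at 1.00 and Rin2 at 0.44. It was negative for Tfrc at -3.22, Apoa4 at -2.71, mt-Tp at -2.55, Cidec at -2.31, Eif4ebp3 at -1.62, Hsph1 at -1.61, Pfkfb3 at -1.34, Cd36 at -1.15, Wee1 at -1.14 and Mbd1 at -1.01. It was also negative for Fgfr1 at -0.98, Srebf1 at -0.92, Bag3 at -0.88, 9030619P08Rik at -0.80, A630031M04Rik at -0.79, Dnajb9 at -0.72, Snhg16 at -0.70 and Rgs5 at -0.66. Age and library kit cannot be told apart.

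For 4 genes, every MM library lay above every CM library while every MF library lay below every CF library. The male minus female difference in log2 fold change was 1.23 for 2310040G24Rik, 1.5 for 5730405O15Rik, 0.32 for Arfgap2 and 0.56 for Mettl17, each with an FDR of 1 by edgeR's quasi-likelihood test of the interaction.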

How the results depend on the processing

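The pooled comparison called 0 genes by the quasi-likelihood test and also with RLE normalisation, no filter, a 1 CPM filter, no sex term, and in the 8 female libraries alone. It called 21 by the likelihood ratio test, 35 by DESeq2, 1 by limma-voom, 3 with total count normalisation, 2 with the 4 group means averaged, 1 in the 8 male libraries alone and 4 as the male effect in the fit of 16. Leaving out 1 library at a time gave 0 to 2 calls (1 without CM 4, which was Obp2a, 2 without CF 2, and 2 without MF 1). Without both MM 2 and CF 2, a setting chosen after seeing the data, 1 gene was called, Eif4ebp3. The count at an unadjusted p under 0.05, 788, ran from 620 without MM 3 to 1246 without MM 2, and was 1757 without MM 2 and CF 2. Total count normalisation moved the median of all genes to 0.05 and gave 620 higher and 203 lower genes at that p, against 423 and 365 with TMM. The interaction of sex and maternal obesity called 0 genes, 4 by the likelihood ratio test and 3 by DESeq2, and 0 to 2 when 1 library was left out (2 without CM 1, 1 without MF 2). The age by maternal obesity interaction, 882 genes, ran from 660 to 1130 when 1 library was left out, and was 1300 without MM 2 and CF 2, 866 with RLE, 788 with total counts and 1046 by the likelihood ratio test.

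Signs turned mainly between the sexes. In the 8 female libraries alone, and as the female effect in the fit of 16, the log2 fold changes were 0.39 and 0.37 for Gtpbp4-ps1, 0.31 and 0.30 for Lpin1, -0.0571 and -0.0715 for Srebf1, 0.12 and 0.11 for Pfkfb3, 0.12 and 0.10 for Pck1, -0.0286 and -0.0436 for Ms4a1, 0.45 and 0.43 for S100a8, 0.0957 and 0.0805 for S100a9, -0.25 and -0.26 for Hamp, and 0.0755 and 0.0616 for Zbtb16. In males, alone or in the fit of 16, Klrb1c was at 0.11 and Alas2 at -0.0367. Hamp was at -0.0472 by limma-voom, and ran from -0.15 without MF 1 to 0.26 without MF 2 when 1 library was left out. The cause was not tested.

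Libraries were paired by replicate number across maternal diet within a sex (CM with MM, CF with MF). Of these 8 pairs 1 had a correlation over 0.1 (range -0.464 to 0.392), and 1 of 8 samples correlated best with its own number. Pairs within a maternal diet (CM with CF, MM with MF), which could share a dam, were not compared, so a shared litter was not tested. With the replicate number as a block the pooled comparison called 2 genes, Obp2a and Eif4ebp3, and the interaction 0.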

Other observations

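Insulin transcripts, Ins1 and Ins2, and the islet hormone Iapp were read as a list added after the values were seen. Ins2 lay between 0.686 and 22.6 CPM in 14 libraries and at 106.8 and 77.0 CPM in MM 2 and CF 2, 1 library of each maternal group. The log2 fold changes of MO against control were 1.04 for Ins1, 1.02 for Ins2 and 1.16 for Iapp, each with an FDR of 0.999 by edgeR's quasi-likelihood test.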
